A study of Mus musculus with 8 samples.

Results

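The enzymes described here make and finish collagen: the 5 lysyl oxidases (Lox, Loxl1, Loxl2, Loxl3 and Loxl4), the 3 lysyl hydroxylases (Plod1, Plod2 and Plod3) and the alpha subunits P4ha1 and P4ha2 of prolyl 4-hydroxylase. They were taken by gene symbol from the deposited tables, and all 10 symbols were found, each once, among the 55276 symbols used. The tables came from 8 RNA-seq libraries of fibro-adipogenic progenitors (FAPs), the mesenchymal progenitors of skeletal muscle, that were sorted by FACS as GFP+, lineage-negative and Sca1+ cells from the freeze-injured tibialis anterior of mice aged 4 to 6 months. Osr1cKO mice were Osr1 flox/flox and controls Osr1 flox/+, and both carried the ubiquitous, tamoxifen-inducible CAGG-CreER transgene, received tamoxifen on the day of injury and on the following days, and expressed GFP from the recombined allele, so that the controls were heterozygous for Osr1 and not wild type. Each genotype had 2 libraries at 3 days post injury (dpi) and 2 at 7 dpi. By the methods of the study, each library of 3 dpi held the FAPs of 1 mouse and each of 7 dpi those of 4 mice. The methods also name 2 sequencing instruments, whereas the labels give 1 for all 8 libraries, so the use of instruments is not settled. The day therefore cannot be told apart from pooling and possibly from the instrument.

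Fibrillar collagen is modified in steps. Prolyl 4-hydroxylase hydroxylates proline in the endoplasmic reticulum, which gives the triple helix its stability at body temperature, and lysyl hydroxylases hydroxylate lysine, which decides what kind of crosslink can form later. After secretion, the copper-dependent lysyl oxidases turn lysine and hydroxylysine side chains into aldehydes that condense into covalent crosslinks between collagen molecules, and they crosslink elastin in the same way; in injured muscle, FAPs are a main source of this matrix.

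The targeted gene, Osr1, had 105 and 91.0 TPM in controls of 3 dpi against 70.7 and 71.9 TPM in Osr1cKO, and 67.6 and 71.6 TPM against 64.4 and 60.8 TPM at 7 dpi. TPM is the share of a library held by a gene after division by its length, so that levels can be compared between genes. The log2 difference for Osr1 at 3 dpi was -0.47 (standard error, SE, 0.13, limma unadjusted p = 0.0153, adjusted p = 0.772). This passed the study's thresholds for that day, which use the unadjusted p. At 7 dpi it was -0.29 (SE 0.08, limma unadjusted p = 0.0150, adjusted p = 0.307), which did not pass those of that day, on the adjusted p. The Osr1cKO libraries lay below the controls at both days. The paper reports efficient deletion of the floxed exon, and TPM of the whole gene does not show exons apart. The controls were heterozygous, so these values do not measure the loss of intact Osr1 transcript. The FAP markers summed to between 18213 and 35806 TPM in a library and overlapped between the genotypes at both days. Ly6a, which encodes the sort marker Sca1, was at 5407 and 4232 TPM in controls and 3058 and 2020.1 TPM in Osr1cKO at 3 dpi (log2 difference -0.96, SE 0.33, limma adjusted p = 0.781). By the study's thresholds for 3 dpi, which use the unadjusted p, Ly6a was lower in Osr1cKO. At 7 dpi it was at 1544 and 1789 TPM against 1357 and 1840 TPM, and in controls both Ly6a (log2 change -1.31) and Pdgfra (-0.55) fell between the days. Several other marker sums stood apart between the genotypes without overlap. At 3 dpi, the tenocyte markers summed to between 578 and 815 TPM in controls against between 1599 and 1831 TPM in Osr1cKO, the leukocyte markers to at most 27.6 against at least 28.9 TPM, the Schwann cell markers to at most 6.49 against at least 7.42 TPM, and the endothelial markers to at least 21.4 against at most 18.0 TPM. At 7 dpi, the tenocyte sums were between 2417 and 2664 TPM against between 3177 and 3616 TPM, the mural between 224 and 478 TPM against between 617 and 737 TPM, the leukocyte between 48.6 and 51.5 TPM against between 65.7 and 84.4 TPM, the Schwann cell at most 12.5 against at least 14.9 TPM, and the myofiber between 62.5 and 73.1 TPM against between 42.7 and 43.4 TPM. The muscle stem cell markers overlapped at both days, at most 7.76 TPM at 3 dpi and at most 41.8 TPM at 7 dpi. Pax7, Myf5, Myod1 and Myog were all at 0 in 2 of the 4 libraries of 3 dpi, and Sox10 was at 0 in 5 libraries. Recovered depth lay between 36516530 and 51096356 fragments on genes, and the 10 enzymes held from 811 to 185157 fragments in a library, so that counting error was at most 3.51% of a value and the spread between libraries set the precision.

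All 10 genes were expressed in every library, and their summed level lay between 6374 and 6520 TPM in controls at 3 dpi and between 3033 and 3317 TPM at 7 dpi. In Osr1cKO the sum lay between 7144 and 7365 TPM and then between 3645 and 3990 TPM. In bulk samples, fewer cells of a type and less RNA per cell cannot be told apart, and with 2 libraries a group the tests measure only the spread between these libraries. The plot of TPM by library shows that Lox and Loxl1 led the order in all 4 groups and that Loxl4 closed it. In controls at 3 dpi, the mean levels ran from Lox at 2126 ± 396 TPM (SD, n = 2) over Loxl1 at 1673 ± 64.4 TPM and Loxl3 at 893 ± 20.3 TPM to Loxl4 at 93.0 ± 14.0 TPM. Between them, the neighbours Plod3, Loxl2 and P4ha1 had overlapping libraries, as had Plod1, Plod2 and P4ha2. In controls at 7 dpi, Loxl1 stood first at 891 ± 7.64 TPM, followed by Lox at 746 ± 86.3 TPM, Loxl2 at 460.4 ± 29.0 TPM and Plod2 at 257 ± 21.2 TPM, and no neighbours among these overlapped. P4ha1 and Loxl3 overlapped after them, as did Plod1 and Plod3.

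**Figure D1:**
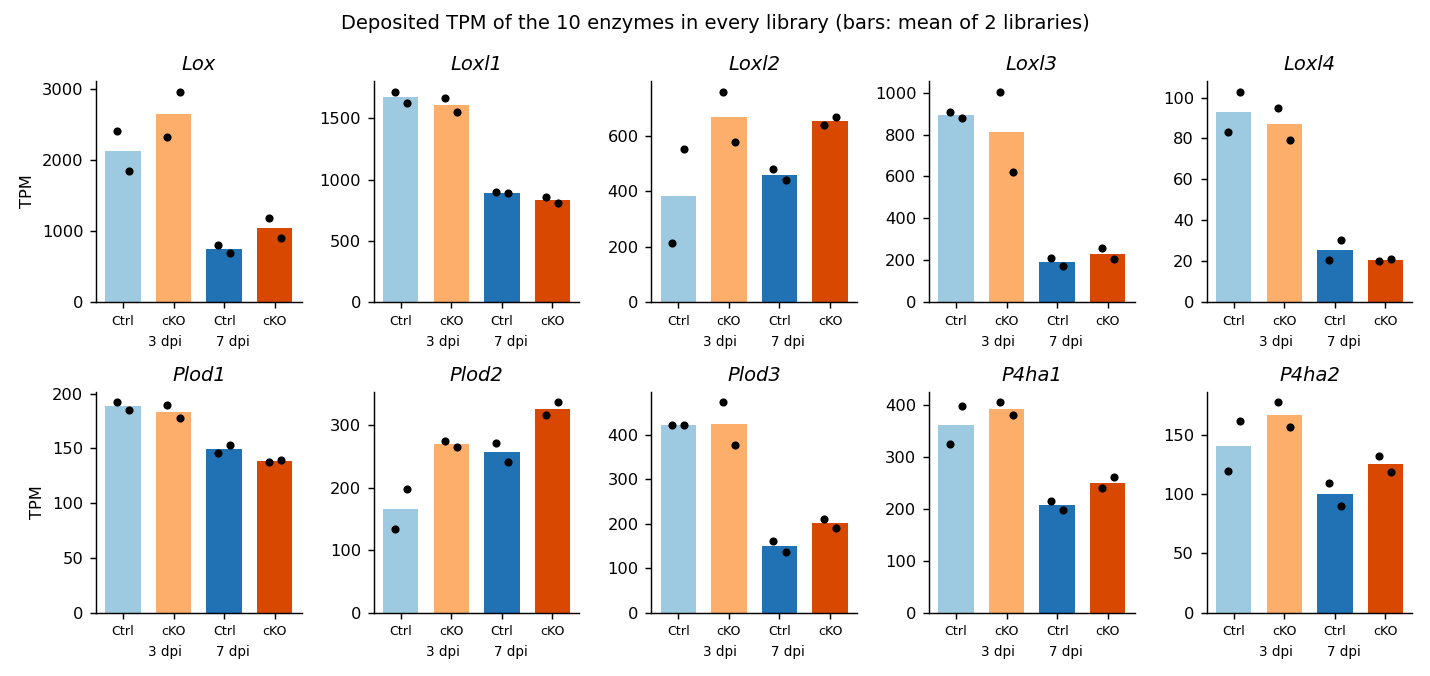
Each panel plots the deposited TPM of 1 enzyme (vertical axis from 0) in the control (Ctrl) and Osr1cKO (cKO) libraries at 3 and 7 dpi; dots are libraries and bars the mean of 2 libraries. Lox, Loxl1, Loxl3, Loxl4, Plod3 and P4ha1 are lower in every 7 dpi library than in every 3 dpi library, whereas Plod2 is lowest in the control libraries of 3 dpi at 133 and 198 TPM.

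Promoter sequences from RefSeq (GRCm38.p6, the assembly of mm10) were held for 5 of the 10 genes, Plod1, Plod3, P4ha1, P4ha2 and Loxl4; Lox, Loxl1, Loxl2, Loxl3 and Plod2 had no entry. The windows of 300 bases, 250 before and 50 after the annotated start, are shown for P4ha1, Plod3 and Loxl4, which fell together between the days in both genotypes, and for P4ha2, which did not pass that test. Capitals mark ACGTG on either strand, 1 form of the core of the element through which hypoxia-inducible factors act. Other forms of that core were not searched for.
P4ha1, chr10:59323046-59323345, plus strand: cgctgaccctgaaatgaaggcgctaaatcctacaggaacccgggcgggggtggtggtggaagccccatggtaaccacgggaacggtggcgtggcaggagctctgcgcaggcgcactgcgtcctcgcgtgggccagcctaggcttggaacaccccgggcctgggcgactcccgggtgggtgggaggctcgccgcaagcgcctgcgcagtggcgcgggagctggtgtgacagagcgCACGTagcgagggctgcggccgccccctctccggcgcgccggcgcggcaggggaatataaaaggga
P4ha2, chr11:54100674-54100973, plus strand: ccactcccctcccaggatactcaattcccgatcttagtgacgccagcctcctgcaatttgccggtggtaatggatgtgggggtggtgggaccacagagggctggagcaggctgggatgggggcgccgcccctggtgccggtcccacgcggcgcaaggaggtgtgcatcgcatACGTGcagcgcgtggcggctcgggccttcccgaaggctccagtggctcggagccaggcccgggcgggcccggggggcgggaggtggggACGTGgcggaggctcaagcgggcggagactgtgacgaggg
Plod3, chr5:136986769-136987068, plus strand: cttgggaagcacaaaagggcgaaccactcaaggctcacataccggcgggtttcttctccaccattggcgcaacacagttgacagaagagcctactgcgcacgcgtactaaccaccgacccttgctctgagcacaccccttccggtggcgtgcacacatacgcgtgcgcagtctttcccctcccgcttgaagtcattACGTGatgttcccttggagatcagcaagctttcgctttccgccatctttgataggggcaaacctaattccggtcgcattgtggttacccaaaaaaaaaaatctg
Loxl4, chr19:42612757-42613056, minus strand: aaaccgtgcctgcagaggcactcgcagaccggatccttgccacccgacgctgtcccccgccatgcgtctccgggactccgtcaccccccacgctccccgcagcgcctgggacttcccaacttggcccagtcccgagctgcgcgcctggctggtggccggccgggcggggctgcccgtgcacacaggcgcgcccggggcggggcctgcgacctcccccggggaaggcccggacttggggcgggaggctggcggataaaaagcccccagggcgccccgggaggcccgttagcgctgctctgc
The P4ha1 window held 1 ACGTG, starting at -16 from the start site, the Plod3 window 1 at -54 and the P4ha2 window 2, while those of Loxl4 and Plod1 held 0. Of all 32544 promoter windows, 19.7% held this motif. The GC box GGGCGG, on either strand and found in 35.9% of all windows, occurred 2 times in P4ha1, 4 times in P4ha2, 3 times in Loxl4, 3 times in Plod1 and 0 times in Plod3. These are matches of letters only, and no binding was measured.

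Between 3 and 7 dpi, control FAPs lowered most of these enzymes while Plod2 went the other way. In controls, 6 of the 10 genes fell and 1 rose at a fold change over 1.2 and an adjusted p under 0.05 (limma, Benjamini-Hochberg). Over all genes, 46.6% passed that rule, 26.4% higher and 20.2% lower, and the members called were mostly lower. Without overlap between the days, 1 member was higher and 8 were lower, where 34.1% and 40.2% of all genes were, 74.4% in either direction. The median change of the 10 was -0.64 on the log2 scale, against 0.11 over all genes tested. In Osr1cKO FAPs 7 fell and 0 rose, where the background was 40.4%, with 23.2% higher and 17.3% lower, and the median was -0.71 against 0.12. Without overlap 1 was higher and 8 were lower there, where 41.2% and 35% of all genes were, 76.2% in either direction. On deposited TPM without further scaling the median of all genes moved by -0.15 in controls and by -0.05 in Osr1cKO, the higher share of all calls dropped from 56.6% to 40.7% and from 57.3% to 49.5%, and 7 enzymes fell in each genotype. The comparisons of the days in the 2 genotypes share no library, but they share 1 estimate of the spread.

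Among the lysyl oxidases, Lox, the founding member of the family, was at 2406 and 1846 TPM in controls at 3 dpi and at 807 and 685 TPM at 7 dpi. In Osr1cKO it was at 2317 and 2959 TPM and then at 1178 and 894 TPM. The days did not overlap in either genotype. The log2 change was -1.29 (SE 0.23, adjusted p = 0.00425) in controls and -1.27 (SE 0.23, adjusted p = 0.00572) in Osr1cKO. A transcript on the opposite strand, AC161119.1, overlaps exons of Lox, and since no source says whether counting used strand, such overlaps make a value uncertain.

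Loxl3 (chromosome 6, 83034173 to 83052562, plus strand), an oxidase with scavenger receptor domains, fell the most in controls. It was at 907 and 879 TPM in controls at 3 dpi and at 209 and 174 TPM at 7 dpi, a log2 change of -2.01 (SE 0.25, adjusted p = 0.00105). In Osr1cKO, 1006 and 619 TPM were followed by 256 and 206 TPM, a change of -1.69 (SE 0.25, adjusted p = 0.00257). The libraries at 3 dpi were tight in controls and wide in Osr1cKO, and the exons of Htra2 overlap Loxl3 on the opposite strand. Loxl4 (chromosome 19, 42593982 to 42612813, minus strand), of the same domain type, was the lowest of the 10, with 83.1 and 103 TPM in controls and 94.9 and 79.2 TPM in Osr1cKO at 3 dpi. At 7 dpi it was at 20.7 and 30.1 TPM and at 20.02 and 21.05 TPM, which made log2 changes of -1.64 (SE 0.20, adjusted p = 0.000945) and -1.94 (SE 0.20, adjusted p = 0.000940).

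Loxl1 (chromosome 9, 58287738 to 58313186, minus strand), the relative of Lox needed for elastic fibers, fell less and with little spread. It was at 1719 and 1628 TPM in controls at 3 dpi and at 897 and 886 TPM at 7 dpi, with 1666 and 1549 TPM followed by 859 and 811 TPM in Osr1cKO. The log2 changes were -0.69 (SE 0.13, adjusted p = 0.00584) and -0.86 (SE 0.13, adjusted p = 0.00335).

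Loxl2 (chromosome 14, 69609068 to 69695834, plus strand), an oxidase that acts on basement membrane type IV collagen, was the only oxidase that did not fall in either genotype. It was at 215 and 553 TPM in controls at 3 dpi and at 481 and 439.9 TPM at 7 dpi, so the 7 dpi libraries lay within the wide range at 3 dpi. The change was 0.63 (SE 0.40, adjusted p = 0.231), and it ran from -0.08 without control replicate 1 of 3 dpi to 1.31, past the threshold, without control replicate 2 of 3 dpi. In Osr1cKO, 762 and 580.2 TPM were followed by 641 and 668 TPM, a change of 0.06 (SE 0.40, adjusted p = 0.911). Gm27177, on the opposite strand, and the microRNA gene Mir6950, on the same strand, overlap its exons.

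The lysyl hydroxylases went in different directions. Plod2 (chromosome 9, 92542223 to 92608428, plus strand), which hydroxylates lysines in the telopeptides of collagen, was at 133 and 198 TPM in controls at 3 dpi and at 272 and 242 TPM at 7 dpi. It rose by 0.87 on the log2 scale (SE 0.19, adjusted p = 0.00869), with both 7 dpi libraries above both of 3 dpi; the exons of Gm38391 overlap it on the opposite strand. The change was 0.78 without control replicate 1 of 7 dpi, where it no longer passed, 0.56 without control replicate 1 of 3 dpi and 1.16 without control replicate 2 of 3 dpi. In Osr1cKO the order of the days was the same, with 275 and 266 TPM before 316 and 336 TPM, but the change of 0.36 (SE 0.19, adjusted p = 0.163) did not pass; without either control library of 3 dpi, which also enter the shared spread, it did.

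Plod3 (chromosome 5, 136987019 to 136996648, plus strand), which also adds sugars to hydroxylysine, fell from 421 and 423 TPM to 161 and 137 TPM in controls and from 473 and 376 TPM to 211 and 189.8 TPM in Osr1cKO. The log2 changes were -1.29 (SE 0.15, adjusted p = 0.000918) and -0.99 (SE 0.15, adjusted p = 0.00321). The exons of Znhit1 on the opposite strand and of Mir702 on the same strand overlap it. Plod1 (chromosome 4, 147909753 to 147936767, minus strand), which hydroxylates lysines of the helix, was the steadiest of the 10, with 192 and 185 TPM in controls and 189.5 and 177 TPM in Osr1cKO at 3 dpi, and 146 and 153 TPM and 137 and 139.5 TPM at 7 dpi. Its change was -0.12 in controls (SE 0.09, adjusted p = 0.280) and -0.32 in Osr1cKO (SE 0.09, adjusted p = 0.0243), and the call in Osr1cKO was lost when any 1 of 5 libraries was left out, both 7 dpi libraries of each genotype and replicate 1 of Osr1cKO at 3 dpi, with values between -0.34 and -0.27.

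For the catalytic subunits of prolyl 4-hydroxylase, P4ha1 (chromosome 10, 59323296 to 59373304, plus strand) was at 325 and 398 TPM in controls at 3 dpi and at 215 and 197 TPM at 7 dpi. In Osr1cKO, 405 and 381 TPM were followed by 239 and 261 TPM. The log2 changes were -0.59 (SE 0.13, adjusted p = 0.00966) and -0.56 (SE 0.13, adjusted p = 0.0136); the call was lost without control replicate 2 of 7 dpi, at -0.52, and in Osr1cKO without replicate 1 of 3 dpi or either replicate of 7 dpi. P4ha2 (chromosome 11, 54100095 to 54131665, plus strand) was at 119 and 162 TPM before 109.6 and 90.2 TPM in controls, and at 177 and 156 TPM before 132 and 119 TPM in Osr1cKO. The days did not overlap, but the changes of -0.27 (SE 0.18, adjusted p = 0.261) and -0.32 (SE 0.18, adjusted p = 0.194) did not pass; without control replicate 1 of 3 dpi the change in controls was -0.51 and passed. The calls of Lox, Loxl1, Loxl3, Loxl4 and Plod3 held in both genotypes with any 1 library left out.

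**Figure D2:**
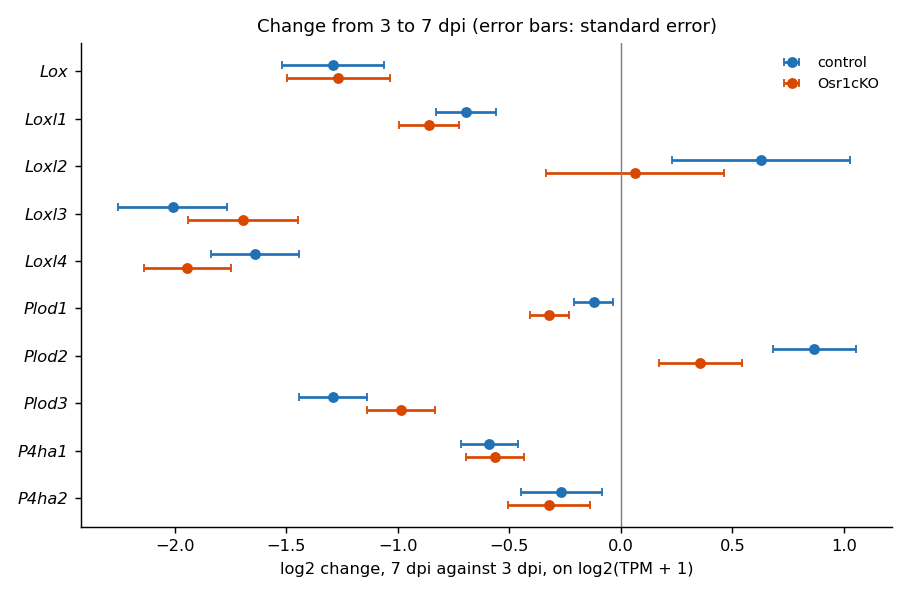
Points give the log2 change of each enzyme from 3 to 7 dpi (horizontal axis, on log2(TPM + 1)) in control and Osr1cKO FAPs, with standard errors as bars and 0 as a grey line. The largest falls in controls are those of Loxl3 at -2.01 and Loxl4 at -1.64, and Plod2 lies right of 0 in both genotypes at 0.87 and 0.36.

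Because the family members moved unequally, the make-up of each family differed between the days. Loxl2 made up 4.03% and 11.0% of the summed lysyl oxidase TPM in controls at 3 dpi and 19.9% and 19.9% at 7 dpi, and 13.0% and 10.02% before 21.7% and 25.7% in Osr1cKO. Loxl3 went from 17.0% and 17.5% to 8.66% and 7.86% in controls. Among the lysyl hydroxylases, Plod2 went from 17.8% and 24.6% in controls and 29.3% and 32.4% in Osr1cKO at 3 dpi to 47.0% and 45.4% and to 47.6% and 50.5% at 7 dpi. Plod3, which held 56.4% and 52.5% of the family in controls at 3 dpi, held 27.9% and 25.8% at 7 dpi. P4ha1 held between 64.3% and 73.1% of the summed P4ha1 and P4ha2 TPM in all 8 libraries. These shares restate the TPM values above and were not tested.

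**Figure D3:**
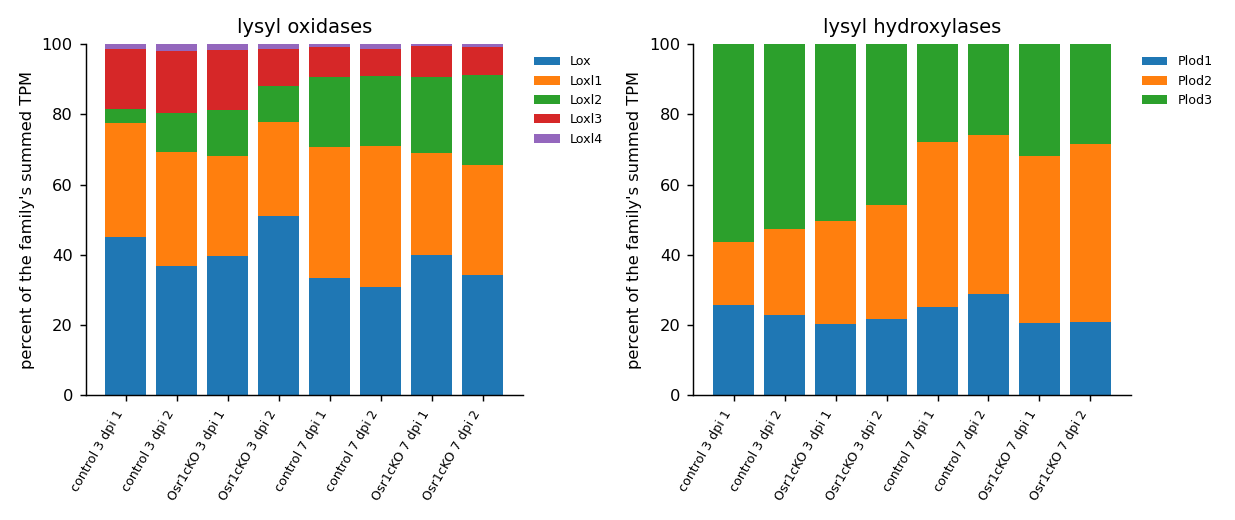
Stacked bars give the percent of the family's summed TPM (vertical axis) held by each lysyl oxidase (left) and each lysyl hydroxylase (right) in the 8 libraries. In the right panel, Plod2 takes between 17.8% and 32.4% in the libraries of 3 dpi and between 45.4% and 50.5% in those of 7 dpi.

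The collagens on which these enzymes act were set beside them. For 100 TPM of Col1a1, Col1a2 and Col3a1, the chains of type I and type III collagen, controls had 22.6 and 11.7 TPM of lysyl oxidases at 3 dpi and 4.79 and 3.92 TPM at 7 dpi. Osr1cKO FAPs had 13.2 and 14.4 TPM and then 5.40 and 5.24 TPM. The high first value belongs to control replicate 1 of 3 dpi, in which Col1a1 was at 12404 TPM where the other libraries of that day had between 20485 and 25017 TPM. Of 12 crosslinking substrates, the fibrillar collagen chains and elastin, 6 rose in controls (Col11a1, Col11a2, Col24a1, Col27a1, Col5a2 and Eln) and 0 fell, with a median of 1.03. Without control replicate 1 of 3 dpi 5 rose and the median was 0.61, and without control replicate 2 of 3 dpi 10 rose and it was 1.22. In Osr1cKO 4 rose and 0 fell, with a median of 0.52. Col11a1, a minor fibrillar chain, went from 1.51 and 1.77 TPM to 48.7 and 49.8 TPM in controls, a log2 change of 4.43 (SE 0.12, adjusted p = 4.9e-05).

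Of 14 other collagen hydroxylases, glycosyltransferases and chaperones, 3 rose in controls between the days and 0 fell. Ppib, the cyclophilin that helps the helix fold, had 395 and 247 TPM before 471 and 418 TPM. P3h3, of the prolyl 3-hydroxylase family, had 135 and 144 TPM before 191 and 182 TPM, and Colgalt2, which adds galactose to hydroxylysine, had 3.23 and 5.57 TPM before 23.7 and 25.8 TPM. In Osr1cKO, Colgalt2 and P3h3 rose and Colgalt1, Fkbp10 and P3h1 fell; the lower calls were 0 without Osr1cKO replicate 1 of 3 dpi or replicate 2 of 7 dpi, 1 without Osr1cKO replicate 2 of 3 dpi, and 5 and 6 without control replicate 1 and 2 of 3 dpi. The list had a median of -0.11 in controls and -0.18 in Osr1cKO. On deposited TPM, 2 rose and 4 fell in controls, and without control replicate 1 of 3 dpi 3 rose and 5 fell, and without control replicate 2 of 3 dpi 3 rose and 2 fell. P4hb, the beta subunit shared by P4ha1 and P4ha2, was at 2596 and 3311 TPM before 2052 and 1786 TPM in controls, a change of -0.40 (SE 0.21, adjusted p = 0.148).

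Of 8 genes that cut or prepare procollagen, 3 rose in controls (Adamts2, Bmp1 and Tll2) and 1 in Osr1cKO (Adamts2), and 0 fell. Tll2 was under 1 TPM in every library. The count in controls was 1 without control replicate 2 of 7 dpi and 2 without control replicate 1 of 7 dpi, and that in Osr1cKO was 0 without Osr1cKO replicate 2 of 3 dpi or either Osr1cKO library of 7 dpi, and 3 without either control library of 3 dpi. Bmp1, the C-proteinase that also activates pro-lysyl oxidase, was at 294 and 349 TPM before 373 and 389 TPM in controls, a change of 0.46 (SE 0.12, adjusted p = 0.0175). Of 8 matrix partners that bind or position lysyl oxidases, Fbln5, Fmod, Fn1, Ltbp4 and Postn rose in controls and 0 fell. In Osr1cKO, Fbln5, Fmod, Ltbp4 and Postn rose and Efemp2 and Fbn1 fell. The lower calls in Osr1cKO were 0 when any of its 4 libraries or either control library of 7 dpi was left out, and the higher ones were 2 without Osr1cKO replicate 2 of either day. Of 4 genes of copper supply, Atp7a, the pump that loads copper onto secreted enzymes, rose in both genotypes, by 0.52 (SE 0.12, adjusted p = 0.0116) and 0.39 (SE 0.12, adjusted p = 0.0376). The other 3 had negative values in both genotypes and 0 of them passed, and the list medians were -0.10 in controls and -0.15 in Osr1cKO. The tenocyte markers rose too, 6 of 6 in both genotypes, and their part and that of the other markers in these changes was not tested.

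**Figure D4:**
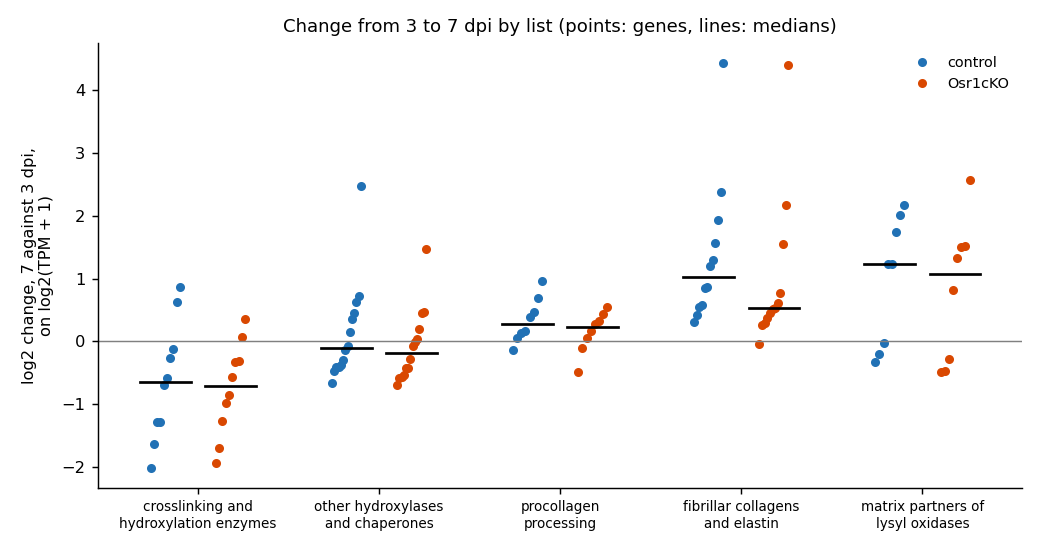
Each point is the log2 change of 1 gene from 3 to 7 dpi (vertical axis, on log2(TPM + 1)) in control or Osr1cKO FAPs, by list, and black lines are medians. The crosslinking and hydroxylation enzymes lie lowest, with medians of -0.64 and -0.71, and the fibrillar collagens and elastin have medians of 1.03 and 0.52.

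The comparison of genotypes asked what loss of Osr1 did to these enzymes at each day. At 3 dpi, Plod2 was the only member higher in Osr1cKO FAPs and 0 were lower, by the thresholds the study set for that day, a fold change over 1.2 and an unadjusted p under 0.05, applied here to limma on TPM. Over all genes, 6.27% passed this rule, 2.19% higher and 4.09% lower, so 1 of 10 is close to the background, and 0 of 15651 genes passed an adjusted p under 0.1. The libraries did not overlap for Plod2 and Loxl2, both higher in Osr1cKO, where 18.1% of all genes were higher and 18% lower without overlap, 36.1% in either direction. The median of the 10 was 0.04, against -0.01 over all genes, and it lay between -0.04 and 0.17 with any 1 library left out.

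Plod2 was at 133 and 198 TPM in controls and at 275 and 266 TPM in Osr1cKO at 3 dpi, which made a log2 difference of 0.71 (SE 0.21, limma unadjusted p = 0.01996, adjusted p = 0.772). Leaving out control replicate 1 gave 0.43 and leaving out control replicate 2 gave 0.99, and the call was lost without Osr1cKO replicate 1, at 0.67. Loxl2 was at 215 and 553 TPM in controls and at 762 and 580.2 TPM in Osr1cKO, with a log2 difference of 0.93 (SE 0.47, adjusted p = 0.836) that did not pass. The value moved with the control libraries: it was 0.25 without replicate 1 and 1.61, past the threshold, without control replicate 2.

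Lox was at 2406 and 1846 TPM in controls and 2317 and 2959 TPM in Osr1cKO, which overlap, with a log2 difference of 0.30 (SE 0.25, adjusted p = 0.884). The other 7 members had values between -0.19 for Loxl3 and 0.24 for P4ha2, and 6 of them, Loxl1, Loxl3, Loxl4, Plod1, Plod3 and P4ha1, changed sign as single libraries were left out; P4ha2 was at 0.46, past the threshold, without control replicate 2. Control replicate 1 stood apart in collagens as well, and the tenocyte markers, of which 2 of 6 were higher by the same rule (Kera and Thbs4) and 6 of 6 had positive values, summed to between 1599 and 1831 TPM in Osr1cKO against between 578 and 815 TPM; the part of these and the other markers, Ly6a included, in the Plod2 and Loxl2 values was not tested.

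Around them, 2 of the 14 other hydroxylases and chaperones, Colgalt2 and Ppib, were higher in Osr1cKO at 3 dpi and 0 were lower, with a median of 0.29 that was 0.14 without control replicate 1. Colgalt2 was at 3.23 and 5.57 TPM in controls and 8.97 and 11.0 TPM in Osr1cKO, which differ on the log2 scale by 1.04 (SE 0.28, adjusted p = 0.772). Of the 12 substrates, Col11a1 and Col27a1 were higher and Col2a1, under 1 TPM in all 4 libraries, was lower, and their median of 0.33 was 0.03 without control replicate 1. Adamts3, a procollagen N-proteinase, was the only one of 8 processing genes past the rule, with 13.2 and 12.1 TPM in controls and 17.5 and 18.0 TPM in Osr1cKO. Of 8 partners, 4 copper genes and 12 TGFβ response genes, 0 passed, and of 16 hypoxia response genes 0 were higher and 2 lower, Adm and Car9, with a median of -0.07 that was 0.06 without control replicate 1. All these counts moved with single libraries. Without control replicate 2, the other hydroxylases had 5 higher and 1 lower, the substrates 4 and 2, the TGFβ genes 3 and 1 and the hypoxia genes 1 and 5, and Adamts3 no longer passed. Without Osr1cKO replicate 1 these lists together had 1 higher, among the other hydroxylases, and 0 lower, and without Osr1cKO replicate 2 the other hydroxylases had 0 higher, the substrates 1 and the TGFβ genes 2.

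At 7 dpi, 0 of the 10 members passed the thresholds the study set for that day, a fold change over 1.2 and an adjusted p under 0.1. Applied here to limma on TPM and not to the study's own test, these thresholds passed 0.067% of 16407 genes, 0.0183% higher and 0.0488% lower. At an unadjusted p under 0.05 in its place, Loxl2 passed, 1 of 10 against 11.2% of all genes, 5.15% higher and 6.05% lower. This count was 5 higher and 2 lower without control replicate 1, 3 higher without Osr1cKO replicate 2, 3 higher and 1 lower with the replicate block, 2 higher and 1 lower with limma-voom, 2 higher with a pseudocount of 0.1 and 0 in the fit of all 8 libraries. On deposited TPM, 6 members were higher without overlap (Lox, Loxl2, Plod2, Plod3, P4ha1 and P4ha2), where 43.1% of all genes were, and Loxl1 and Plod1 were lower without overlap, where 10.6% of all genes were, 53.7% in either direction. The scaling bears on this day: without it the median of all genes moved by 0.11 towards Osr1cKO, the higher share of calls at the unadjusted p went from 46.0% to 83.2%, and the 6 members just named passed the unadjusted threshold.

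Loxl2 was at 481 and 439.9 TPM in controls and at 641 and 668 TPM in Osr1cKO at 7 dpi. Both Osr1cKO libraries lay above both controls, at a log2 difference of 0.37 (SE 0.09, limma adjusted p = 0.273), and the value kept between 0.30 and 0.44 with any 1 library left out. The study singled out Loxl2 at 7 dpi from these same libraries, so its direction here is not independent evidence. Lox was at 807 and 685 TPM against 1178 and 894 TPM, with a wider spread and a log2 difference of 0.33 (SE 0.18, adjusted p = 0.498). Loxl1 was at 897 and 886 TPM against 859 and 811 TPM, a value of -0.23 (SE 0.10, adjusted p = 0.411), and Loxl3 at 0.13 had overlapping libraries. Loxl4, at 20.7 and 30.1 TPM in controls and 20.02 and 21.05 TPM in Osr1cKO, overlapped too, with a value of -0.40 (SE 0.17, adjusted p = 0.416) that passed the adjusted threshold, at -0.66, only without control replicate 1.

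Plod2 was again above the controls in both Osr1cKO libraries, at 316 and 336 TPM against 272 and 242 TPM, with a log2 difference of 0.21 (SE 0.09, adjusted p = 0.411). Plod3 was at 211 and 189.8 TPM against 161 and 137 TPM, a log2 difference of 0.29 (SE 0.12, adjusted p = 0.393). Plod1 was lower, at 137 and 139.5 TPM against 146 and 153 TPM, but its change of -0.25 (SE 0.07, adjusted p = 0.298) was under the fold threshold. P4ha1 and P4ha2 had values of 0.14 (SE 0.08) and 0.20 (SE 0.13), and the median of the 10 was 0.17 against 0.00 over all genes. Leaving out a control library moved that median to 0.28 (replicate 1) or 0.06 (replicate 2), leaving out Osr1cKO replicate 1 moved it to 0.10, and on deposited TPM it was 0.30. Of the markers, 6 of 6 of tenocytes were above the controls, 4 past the unadjusted threshold (Fmod, Mkx, Scx and Tnmd), as were 8 of 8 of leukocytes, 2 past it (Cd14 and Csf1r). Cdh5 and Emcn of endothelium, 1 of 6 mural markers (Acta2) and S100b of Schwann cells passed upward too. Downward, 4 of 7 myofiber markers passed (Acta1, Ckm, Mylpf and Tnnt3). On scaled values, all 8 FAP markers had negative log2 differences, with a median of -0.17. All 6 muscle stem cell markers were negative too, with a median of -0.32, and 0 of either list passed. The part of all these markers in the member values was not tested.

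**Figure D5:**
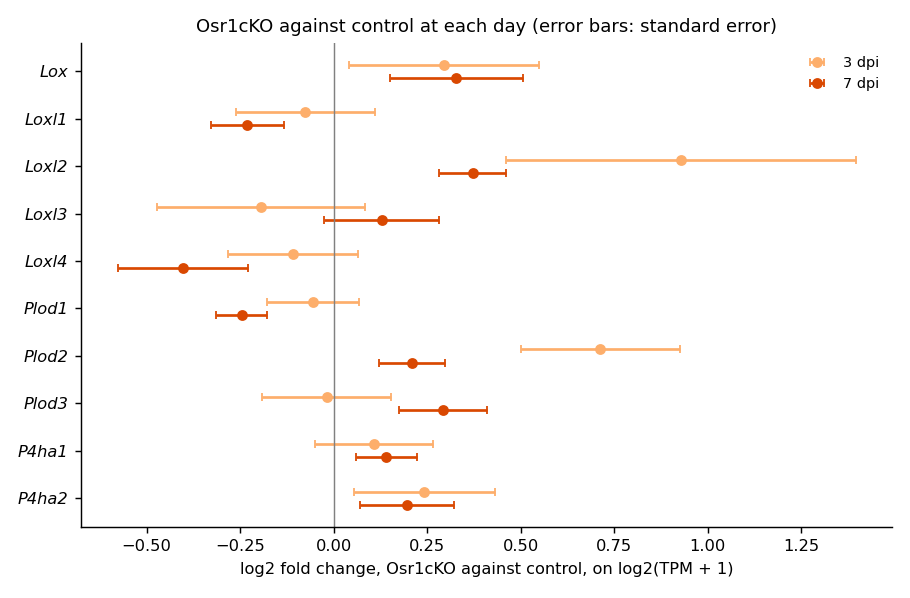
Points give the log2 difference of each enzyme in Osr1cKO against control FAPs (horizontal axis, on log2(TPM + 1)) at 3 and 7 dpi, with standard errors as bars and 0 as a grey line. Loxl2 has the highest value at both days, 0.93 and 0.37, with a far wider error at 3 dpi, and Plod2 follows at 3 dpi at 0.71.

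A test of the difference between the days, the genotype by day interaction in the fit of all libraries, called 0 of 17226 genes at an adjusted p under 0.05 (limma; 1184 had an unadjusted p under 0.05), 31 without a filter on low values. For the members, the lowest adjusted p was 0.775, that of Plod2. The largest differences were those of Loxl2, at -0.57 (SE 0.56), and Plod2, at -0.51 (SE 0.26). The value of Loxl2 was 0.13 without control replicate 1 of 3 dpi and -1.26 without control replicate 2 of 3 dpi, and that of Plod2 lay between -0.81 and -0.21 with any 1 library left out. A difference in the effect of genotype between the days was thus not detectable for any member with these libraries.

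Among the other genes of the pathway at 7 dpi, elastin (Eln), a substrate of Lox and Loxl1, was the only one called. It fell from 249 and 247 TPM in controls to 92.9 and 121 TPM in Osr1cKO, which differ on the log2 scale by -1.35 (SE 0.12, adjusted p = 0.0911). The call was lost with a filter at a mean TPM of 1, without a filter and in the fit of all 8 libraries, where the lowest adjusted p of any gene was 0.118, 0.401 and 0.167, and on deposited TPM a substrate was called higher beside it. At the unadjusted threshold, 3 of 14 other hydroxylases and chaperones were higher, P3h2, P3h4 and P4ha3, the alternative prolyl 4-hydroxylase subunit. P3h2 was at 8.80 and 4.92 TPM in controls and 17.7 and 15.5 TPM in Osr1cKO, a log2 difference of 1.08 (SE 0.26, adjusted p = 0.274), and P4ha3 was at 174 and 159 TPM against 218 and 230.2 TPM. Col11a1 and Col24a1 among the substrates, Adamts3 among the processing genes and Fmod among the partners passed upward at this threshold, Adamts2 passed downward, and 0 of 3 copper genes tested passed. The counts of the other hydroxylases, substrates, processing genes and partners at this threshold moved as single libraries were left out. On deposited TPM, 0 processing genes passed downward.

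Lox, Plod2, P4ha1 and P4ha2 are known to be induced through the hypoxia response, whose part in the member values was not tested. Of 16 genes of this response, 15 had positive values at 7 dpi, with a median of 0.28. At the unadjusted threshold 7 were higher (Bnip3, Ddit4, Egln3, Ero1l, Pdk1, Pgk1 and Vegfa), Adm was lower, and 0 passed the adjusted one. Ero1l, the oxidase of the endoplasmic reticulum, was at 24.9 and 22.1 TPM in controls and 40.1 and 38.4 TPM in Osr1cKO, which differ on the log2 scale by 0.59 (SE 0.10, adjusted p = 0.215). On deposited TPM the median was 0.40 and 11 were higher. The count was 3 without control replicate 2 or either Osr1cKO library, and the median was 0.16 without control replicate 2; without control replicate 1, 8 were higher, 6 of them past the adjusted threshold, and the median was 0.41. Of 12 TGFβ response genes, 0 passed the adjusted threshold, and Scx, Tgfbi and Timp1 were higher and Ccn1 lower at the unadjusted one; the study singled out Scx, Tgfbi and Timp1 at 7 dpi from these libraries, so their direction is not independent evidence. Between the days, 4 genes of the hypoxia list rose and 3 fell in controls and 7 rose and 1 fell in Osr1cKO, with Ndrg1 rising and Ldha falling in both; with 1 library left out, 2 to 4 rose and 2 to 6 fell in controls and 4 to 7 rose and 1 fell in Osr1cKO.

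The genes whose pattern over the 8 libraries was most like that of Loxl2, by Pearson correlation of scaled log2(TPM + 1) among 10384 genes, were Copz2 (r = 0.988), Nrp2 (r = 0.979) and Sgcd (r = 0.969). For Plod2 they were Ikbip (r = 0.989), St3gal5 (r = 0.981) and Cmas (r = 0.975). Lox was most like Relt (r = 0.996), Loxl3 most like Myo1c (r = 0.995) and P4ha1 most like Mmadhc (r = 0.999). Among the members, Loxl3 and Plod3 were closest (r = 0.988), and Loxl1 and Plod2 the most opposed (r = -0.754). All libraries of a day share its pooling of mice, so these values are descriptions only.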

How the data were processed

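Reads of stranded paired-end libraries were aligned by the authors with STAR (mm10) and normalized with DESeq2, per the submitters' processing notes and the methods of the study, and the authors deposited TPM, 1 value per gene symbol and library; the counter, its annotation and its use of strand are not given in the sources used here. Of 55385 entries per library, 109 repeated ones were left out. With exon lengths from GENCODE M21 (GRCm38), low values (under 50 fragments) were whole to within 0.02 in 98.7% to 98.9% of cases, which gave depths of 46401574 to 51096356 fragments at 3 dpi and 36516530 to 41163488 at 7 dpi.

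The design had allowed for counts; since the unit is TPM, values were scaled with trimmed means (30% trim) and compared as log2(TPM + 1) with limma (lmFit, eBayes with trend), which understates changes of low genes. Genes needed 10 recovered fragments in 2 libraries and 15 in all, or a mean TPM of 1 without a length. Each day was fitted on its 4 libraries; the days and the interaction on all 8, with 1 shared spread. Adjusted p-values are Benjamini-Hochberg over all genes tested. Calls took a fold over 1.2 together with p under 0.05, unadjusted, at 3 dpi, adjusted p under 0.1 at 7 dpi and adjusted p under 0.05 between days. The procedure was run on simulated counts with known changes, the same spread for every gene and no deviant library. That run cannot show how the calls behave on these libraries. Software was Python 3.11.15 (NumPy 2.4.6, pandas 2.3.3) and limma 3.58.1 under R 4.3.3.

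The members and lists were chosen with earlier results of these data known. Named were all members, Osr1 and, per list and comparison, for higher and for lower, the non-overlapping gene with the lowest p; other genes named with counts were named after their values were seen. For likeness, the 3 genes of highest r with a mean TPM of at least 5 were taken. Alternatives were deposited TPM and median of ratios scaling, other filters, a pseudocount of 0.1, robust eBayes, limma-voom, a fit of all 8 libraries, a replicate block, other thresholds and leaving out each library.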

Additional observations from a re-analysis of the deposited data

How the results depend on the processing

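Of 720 values of single members under the alternatives, 672 kept their direction and their side of the threshold. The values that changed direction without leaving out a library both came from deposited TPM without further scaling: Loxl2 between the days in Osr1cKO at -0.022, and P4ha2 in the interaction at 0.0717. As each library was left out, the log2 values that changed sign ran at 3 dpi from -0.15 to 0.0011 for Loxl1, from -0.57 to 0.18 for Loxl3, from -0.26 to 0.0437 for Loxl4, from -0.13 to 0.0153 for Plod1, from -0.21 to 0.17 for Plod3 and from -0.038 to 0.25 for P4ha1. At 7 dpi Loxl3 ran from -0.0555 to 0.31, and between the days Loxl2 ran from -0.0775 to 1.31 in controls and from -0.15 to 0.26 in Osr1cKO. In the interaction the ranges were -0.20 to 0.25 for Lox, -1.26 to 0.13 for Loxl2, -0.0495 to 0.68 for Loxl3, -0.14 to 0.19 for P4ha1 and -0.29 to 0.18 for P4ha2.

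The 982 genes called at 3 dpi became 1701 in a fit of all 8 libraries, 0 at an adjusted p under 0.1 and between 489 and 2748 with 1 library left out, and the 1 member called became 2, 0 and between 0 and 3. The 11 genes at 7 dpi became 18 on deposited TPM, 0 with a filter at a mean TPM of 1, 0 without a filter, 204 with limma-voom, 0 in a fit of all 8 libraries, 1837 at an unadjusted p, with 1 member higher, and between 11 and 577 with 1 library left out, with 0 to 1 members lower. Between the days, leaving out 1 library gave 4703 to 8087 genes in controls (0 to 2 members higher) and 3686 to 8137 in Osr1cKO (0 to 1 members higher). The interaction, with 0 genes, gave 1 with the filter at a mean TPM of 1, 31 without a filter, 3 with a pseudocount of 0.1 and 0 to 66 with 1 library left out, and 0 members throughout. The causes were not tested.

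The labels give the libraries of the 2 genotypes only a replicate number in common. Deviations of same-numbered libraries correlated at -0.12 at 3 dpi and 0.07 at 7 dpi. With 2 libraries a group, this cannot show whether libraries were handled in pairs. A replicate block gave 954 genes and 1 member higher at 3 dpi, 10 genes and 0 members at 7 dpi, and 0 genes in the interaction; between the days it kept 1 member higher and 6 lower in controls and 0 and 7 in Osr1cKO. The crossed pairing at 3 dpi, chosen after seeing the data, gave 1252 genes and 2 members higher. With 2 libraries a group, 1 library can carry a difference, and changes under about the spread between libraries were not detectable at this size.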
